A study of Homo sapiens with 12 samples.

Results

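The genes described here are the mitochondrially encoded genes of human cells, chosen by symbol as every gene whose name starts with MT-. They number 37 of the 60669 genes in the count table and comprise 13 mRNAs, 2 rRNAs and 22 tRNAs. They were proposed as a group after changes of the 2 rRNAs with quinacrine (QC) had been seen in these same libraries, so the QC values below describe the genes and are not independent evidence.

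QC is an antimalarial drug, and the study compared its effect on the transcriptome of chemosensitive and chemoresistant ovarian cancer cells. The sensitive lines were HeyA8, SK-OV-3 and OV2008. Their isogenic resistant partners were HeyA8-MDR (carboplatin-resistant), SK-OV-3-TR (taxol-resistant) and C13 (cisplatin-resistant, derived from OV2008). Cells of each line were kept in 8 µM QC, or in vehicle, for 6 h, and every line gave 1 polyA RNA library per treatment, which makes 12. No line had a replicate library, and the 3 lines of a group are its replicates, so p-values measure the spread between lines.

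Mitochondrial DNA is a small circular genome, transcribed inside the organelle by its own polymerase, POLRMT. Each strand is read into long RNAs that carry many genes in a row, and tRNAs between the genes mark most of the places where the RNA is cut. The rRNAs build the mitochondrial ribosome, and the mRNAs encode core subunits of respiratory complexes I, III and IV and of the ATP synthase, whose other subunits come from nuclear genes. Most mitochondrial mRNAs carry short poly(A) tails, the rRNAs carry shorter ones, and MT-ND6 mRNA is known to lack a tail for the most part. Mature tRNAs are short and highly structured RNAs without such tails.

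Transcription from the heavy-strand promoter covers 28 of the 37 genes (12 mRNAs, both rRNAs and 14 tRNAs), and transcription from the light-strand promoter covers the other 9 (MT-ND6 and 8 tRNAs). Coordinates and sequences are those of the GENCODE annotation on GRCh37, and all 37 genes had the same start and end in the RefSeq table on the later build GRCh38. MT-RNR1, the small rRNA, lies at chrMT:648-1601 and MT-RNR2, the large rRNA, at chrMT:1671-3229, both within the heavy-strand transcript. MT-ND6 lies at chrMT:14149-14673 on the other strand.

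The last bases of the mRNAs are shown because the libraries were made from polyA RNA. As annotated, 6 of the 13 genes end inside a stop codon that only a poly(A) tail completes. Capitals mark the final codon, or the bases left over after the last whole codon.
MT-ND1: attccccctcaaaccTA
MT-ND2: atactaataatcttaT
MT-CO3: tattgatgagggtctT
MT-ND3: ttagactgaaccgaaT
MT-ND4: accgggttttcctctT
MT-CYB: atactcaaatgggccT
MT-CO2: cccgtatttaccctaTAG
MT-ND5: ctactcctaatcacaTAA
MT-ND6: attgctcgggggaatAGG
In the first 6 of these sequences 1 or 2 bases follow the last whole codon, whereas MT-CO2, MT-ND5 and MT-ND6 end on a whole codon encoded in the DNA. MT-ATP6, not shown, also ends on a whole codon as annotated, but its last base is the first base of MT-CO3. The heavy-strand mRNAs held between 6.28% and 16.2% G and between 29.5% and 36.0% C. MT-ND6, read from the opposite strand, held 35.6% G and 7.05% C.

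Some of these genes share bases, which limits what their counts can tell apart. The overlap of MT-ATP8 and MT-ATP6 spans 46 bases at chrMT:8527-8572 and is shown with the start codon of MT-ATP6 in capitals.
MT-ATP8/MT-ATP6: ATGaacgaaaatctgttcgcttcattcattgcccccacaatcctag
MT-ND4L and MT-ND4 overlap by 7 bases at chrMT:10760-10766. Both pairs are known to be carried on shared, bicistronic mRNAs, so the counts of the 2 genes of a pair come partly from the same molecules.

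The 3 tRNAs with the most counts, all on the light strand, are shown whole because they carry nearly all tRNA counts of these libraries. MT-TP lies at chrMT:15956-16023, MT-TC at chrMT:5761-5826 and MT-TY at chrMT:5826-5891, and the latter pair share 1 base.
MT-TP: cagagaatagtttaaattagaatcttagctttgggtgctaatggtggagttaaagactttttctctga
MT-TC: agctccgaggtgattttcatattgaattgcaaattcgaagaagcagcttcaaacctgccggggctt
MT-TY: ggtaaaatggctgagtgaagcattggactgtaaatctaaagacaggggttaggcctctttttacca

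Library totals lay between 17782556 and 30585059 counts, with a median of 22289428, and 18720 genes were tested. The epithelial keratins KRT8 (243 to 3910 CPM, counts scaled by library size) and KRT18 (181 to 2077 CPM) and the Müllerian marker PAX8 (7.20 to 552 CPM) were present in every library, while the ovarian marker WT1 stayed between 1.12 and 4.38 CPM and MUC16 passed 1 CPM in 5 of the 12 libraries. The keratin KRT19 (0.0943 to 1914 CPM) passed 1 CPM in 8 of the 12 libraries, and EPCAM and CDH1 were at 0 in some. The leukocyte marker PTPRC and the fibroblast marker LUM stayed under 1 CPM in all 12, whereas the collagen gene COL1A1, also on the list of other cell types, ran from 0.66 to 41.8 CPM and passed 1 CPM in 10 of the 12. The HeyA8 QC library stood apart. Of genes at least 8-fold apart between the HeyA8-MDR and HeyA8 vehicle libraries, the 35 higher in HeyA8-MDR lay in the HeyA8 QC library a median 39.5% of the way to the HeyA8-MDR level, and the 83 lower ones lay 52.7% of the way, against a range from -14.1% to 34.7% in the other lines. Results that rest on HeyA8 are therefore also given without it.

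Mitochondrially encoded genes took between 4.19% and 6.63% of the counts of a library. The lowest share was that of the HeyA8 vehicle library (95% Wilson interval 4.187% to 4.202%) and the highest that of the OV2008 vehicle library (6.62% to 6.64%). These intervals cover counting error only. In bulk RNA, fewer copies of mitochondrial DNA per cell and less RNA per copy cannot be told apart.

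With QC the share went from 4.19% to 4.64% in HeyA8, from 4.34% to 5.01% in HeyA8-MDR and from 4.86% to 5.67% in SK-OV-3-TR. It went from 5.52% to 5.10% in SK-OV-3, from 6.63% to 5.001% in OV2008 and from 4.51% to 4.24% in C13. The total therefore moved up in 3 lines and down in 3, with a median log2 change of 0.03 and an SD of 0.245 over the 6 lines. Without HeyA8 the median was -0.09. Both directions occurred among the 3 sensitive and among the 3 resistant lines.

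**Figure D1:**
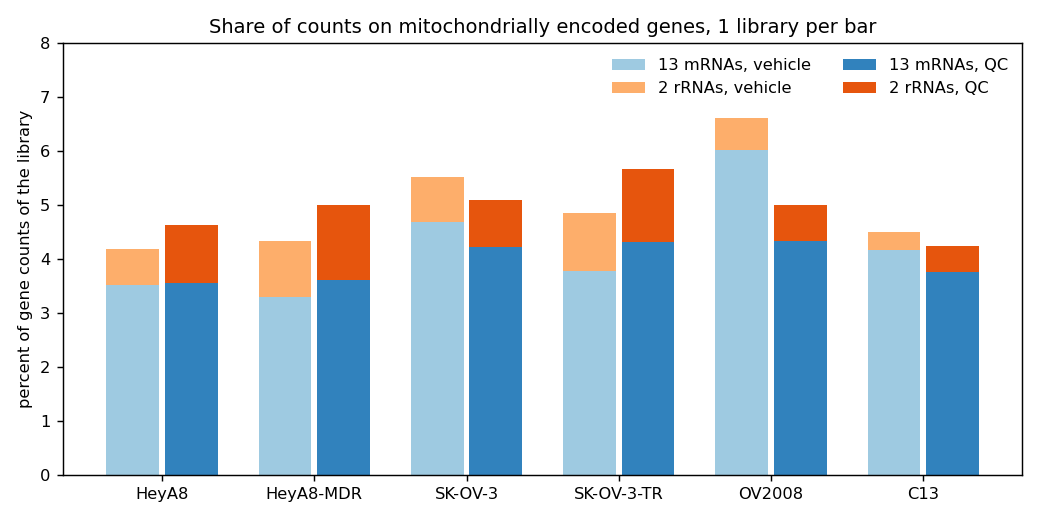
Percent of gene counts of each library (vertical axis, from 0) taken by the 13 mRNAs (blue) and the 2 rRNAs (orange, stacked on top), with 1 library per bar, vehicle in the light and QC in the dark shade. The orange part is taller with QC in all 6 lines (from 0.329% to 0.470% in C13, for example), whereas the blue part is taller in 3 lines and shorter in 3.

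Within the mitochondrial counts, the rRNAs took a larger part with QC in 6 of 6 lines. Their share of mitochondrial counts went from 15.9% to 23.2% in HeyA8, from 23.8% to 27.7% in HeyA8-MDR and from 14.9% to 17.1% in SK-OV-3. It went from 22.2% to 23.7% in SK-OV-3-TR, from 9.01% to 13.1% in OV2008 and from 7.31% to 11.1% in C13. The vehicle shares of the lines spread more widely than any line moved with QC. As log2 ratios, these changes of the rRNA share ran from 0.09 in SK-OV-3-TR to 0.60 in C13. As a share of the whole library the rRNAs were also higher with QC in all 6 lines, from 0.666% to 1.08% in HeyA8 with the largest ratio and from 0.824% to 0.870% in SK-OV-3 with the smallest. Messenger RNAs went from 6.02% to 4.34% of the library in OV2008 and from 3.77% to 4.32% in SK-OV-3-TR, the extremes in each direction.

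MT-RNR2, the 16S rRNA of the large mitochondrial ribosomal subunit, accounted for most of the rRNA counts. Its normalised level was 6377 CPM in the vehicle and 10649 CPM in the QC library of HeyA8, 9874 and 14844 CPM in HeyA8-MDR, and 7084 and 7408 CPM in SK-OV-3. It was 9034 and 12083 CPM in SK-OV-3-TR, 5622 and 6069 CPM in OV2008, and 2791 and 3746 CPM in C13. The level was higher with QC in each of the 6 lines, but vehicle and QC libraries overlapped widely across lines. The log2 change per line was 0.74 in HeyA8, 0.59 in HeyA8-MDR, 0.06 in SK-OV-3, 0.42 in SK-OV-3-TR, 0.11 in OV2008 and 0.42 in C13. Counting error alone gave 95% intervals of at most ±0.0133 around these ratios.

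Over all 6 lines the log2 change of MT-RNR2 was 0.39 (SE 0.136, n = 6 lines), with an unadjusted p of 0.0134 and an adjusted p of 0.213 in edgeR's quasi-likelihood test with Benjamini-Hochberg adjustment. It did not pass an adjusted threshold of 0.05. The lines form isogenic pairs, and every fit over all lines counts both lines of a pair as separate replicates. Leaving out any 1 line kept the unadjusted p between 0.00964 and 0.0476, and without HeyA8 the log2 change was 0.32 (unadjusted p = 0.0476, adjusted p = 0.409). With no filter on low counts, which tested 39590 genes, the adjusted p was 0.0184. DESeq2 with the same design gave an adjusted p of 0.0559.

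Many other genes changed as much as MT-RNR2 in each line. Of all genes tested, 15.7% had a larger log2 change than MT-RNR2 in HeyA8, 16.3% in HeyA8-MDR and 16.6% in SK-OV-3-TR. This share was 23.2% in C13, 40.6% in SK-OV-3 and 42.0% in OV2008. Among the 15 mitochondrial mRNAs and rRNAs, MT-RNR2 had the highest log2 change in 5 lines, and in SK-OV-3-TR it ranked 6.

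MT-RNR1, the 12S rRNA of the small subunit, was far lower in counts, at between 3.72% and 17.3% of the MT-RNR2 count. It stood at 899 CPM in the vehicle and 1391 CPM in the QC library of HeyA8, at 1487 and 1953 CPM in HeyA8-MDR, and at 336 and 576 CPM in SK-OV-3-TR. In the other lines it was 359 and 357 CPM in SK-OV-3, 649 and 582 CPM in OV2008, and 483 and 448 CPM in C13. MT-RNR1 was thus higher with QC in 3 lines and slightly lower in 3, and the 2 rRNAs did not move alike. Its log2 change over all lines was 0.25 (SE 0.149, adjusted p = 0.437, edgeR quasi-likelihood test), and it was 0.18 without HeyA8 and 0.15 without SK-OV-3-TR. The count of MT-RNR1 as a percentage of MT-RNR2 went from 17.3% to 11.95% in C13 and from 3.72% to 4.77% in SK-OV-3-TR, and SK-OV-3-TR was the only one of the 6 lines in which it went up.

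**Figure D2:**
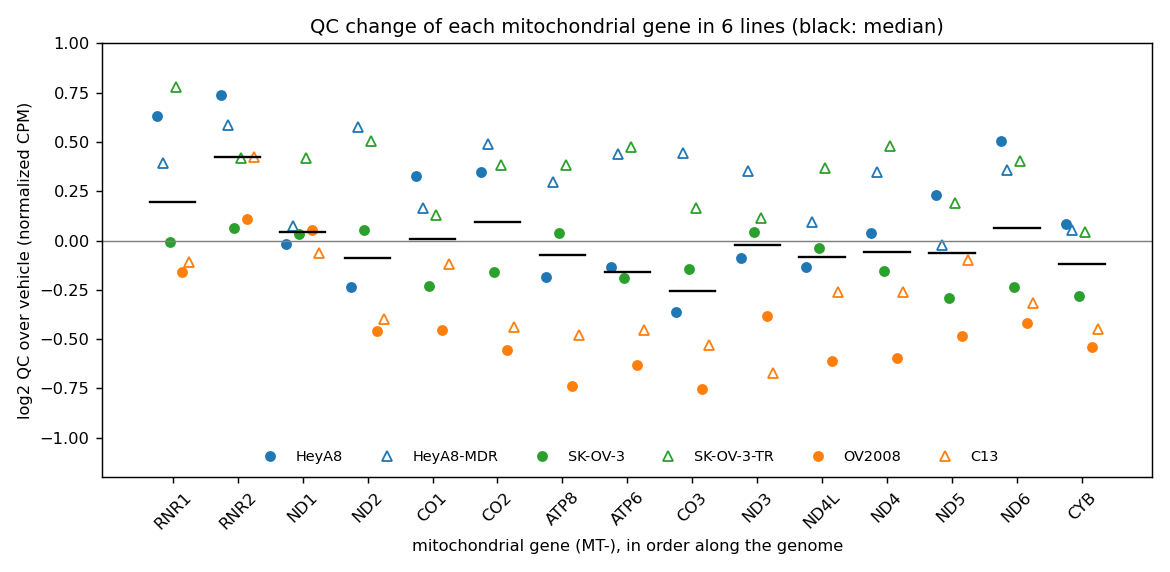
Log2 ratio of normalised CPM, QC over vehicle (vertical axis), for each of the 15 mitochondrial rRNAs and mRNAs in order along the genome, with 1 point per line (filled, sensitive lines; open, resistant lines) and a black bar at the median of the 6 lines. The points of MT-RNR2 lie above 0 in all lines, from 0.06 to 0.74, while those of each mRNA lie on both sides of 0.

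The 13 mRNAs moved little over the 6 lines as a whole. Their log2 changes over the 6 lines ran from -0.20 for MT-CO3 to 0.08 for MT-ND1, with SEs between 0.119 and 0.165, and the smallest unadjusted p among them was 0.193 (MT-CYB). The number of mRNAs above 0 differed widely between lines. Of the 13 mRNAs, 13 were above 0 in SK-OV-3-TR and 12 in HeyA8-MDR, while HeyA8 had 6, SK-OV-3 had 4, OV2008 had 1 and C13 had 0. The median of the 12 heavy-strand mRNAs was 0.37 in SK-OV-3-TR, 0.32 in HeyA8-MDR, -0.05 in HeyA8, -0.15 in SK-OV-3, -0.42 in C13 and -0.55 in OV2008. The related lines OV2008 and C13 were the 2 lowest.

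Complex I oxidises NADH and contains the products of MT-ND1 to MT-ND6 and MT-ND4L, which took between 37.2% and 46.1% of the mitochondrial mRNA counts. MT-ND1 had the narrowest range of change, from -0.06 in C13 to 0.42 in SK-OV-3-TR on the log2 scale. MT-ND2 ranged from -0.46 in OV2008 to 0.58 in HeyA8-MDR. MT-ND3 fell within -0.67 to 0.35, MT-ND4 within -0.60 to 0.48, MT-ND4L within -0.61 to 0.37 and MT-ND5 within -0.48 to 0.23. Each of these 6 genes lay on both sides of 0 among the lines.

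Complex IV, cytochrome c oxidase, took between 36.3% and 47.0% of the mRNA counts through MT-CO1, MT-CO2 and MT-CO3. MT-CO3 was 5229 CPM in the vehicle and 4061 CPM in the QC library of HeyA8, 3093 and 4210 CPM in HeyA8-MDR, and 4736 and 4284 CPM in SK-OV-3. It was 4517 and 5060 CPM in SK-OV-3-TR, 7139 and 4239 CPM in OV2008, and 5197 and 3596 CPM in C13. It was lower with QC in the 3 sensitive lines and in C13, and higher in the other 2 resistant lines. MT-CO1, whose log2 changes ran from -0.45 to 0.33, and MT-CO2, from -0.56 to 0.49, were higher with QC in 3 of 6 lines each.

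MT-CYB, the only mitochondrial gene of complex III, took between 2.95% and 8.47% of the mRNA counts. Its log2 change ran from -0.54 in OV2008 to 0.08 in HeyA8, with -0.18 over all lines (edgeR adjusted p = 0.537). MT-ATP6 and MT-ATP8, of the ATP synthase, took between 6.51% and 9.35% together. MT-ATP6 ranged from -0.63 in OV2008 to 0.48 in SK-OV-3-TR, and MT-ATP8 from -0.74 to 0.38 in the same 2 lines, as 2 genes on a shared mRNA.

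Reads from nuclear copies of mitochondrial genes bear on these values, since near-identical copies can split reads. MTATP6P1, a nuclear copy of MT-ATP6, had between 8009 and 15347 counts, or 16.8% to 20.8% of the MT-ATP6 count, and MTND2P28 had between 845 and 2106 counts, or 2.49% to 3.37% of MT-ND2. MTCO1P12 stayed between 0.0883% and 0.148% of MT-CO1, and MTRNR2L1 had between 0 and 85 counts. The levels of MT-ATP6 and MT-ND2 are uncertain for that reason. Reads that fit a gene and its copy alike can be missing from both counts, so these percentages set no upper limit, also for MT-CO1. The log2 change over all lines was -0.13 for MTATP6P1 and 0.09 for MTND2P28, beside -0.08 for MT-ATP6 and 0.01 for MT-ND2, and of the 7 copies that passed the filter 0 had an unadjusted p under 0.05.

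Set against the 12 heavy-strand mRNAs of the same library, the rRNAs were higher with QC in every line. The median change of the 2 rRNAs minus that of the mRNAs was 0.74 in HeyA8, 0.17 in HeyA8-MDR and 0.18 in SK-OV-3 on the log2 scale. It was 0.22 in SK-OV-3-TR, 0.52 in OV2008 and 0.58 in C13. The median over the 6 lines was 0.37 (SD 0.243), and 0.22 without HeyA8. In OV2008 and C13 the heavy-strand mRNAs themselves had medians of -0.55 and -0.42, whereas in HeyA8 their median was near 0 (-0.05) and that of the rRNAs was 0.68.

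MT-ND6, a complex I subunit and the only mRNA of the light strand, was compared with the heavy-strand mRNAs. It was 515 CPM in the vehicle and 731 CPM in the QC library of HeyA8, 728 and 934 CPM in HeyA8-MDR, and 842 and 715 CPM in SK-OV-3. It was 384 and 509 CPM in SK-OV-3-TR, 1209 and 906 CPM in OV2008, and 828 and 665 CPM in C13. In direction it followed the heavy-strand median in each line but HeyA8. Its change minus that median was 0.56 in HeyA8 and lay between -0.09 and 0.13 in the other 5 lines, with a median of 0.07 (SD 0.224). Over all lines its log2 change was 0.05 (SE 0.151, adjusted p = 0.907, edgeR), and without HeyA8 it was -0.04. The strand setting of the counting is not given in the sources used here, so reads from the RNA opposite MT-ND6 cannot be told apart from its own, and the same holds for the light-strand tRNAs.

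**Figure D3:**
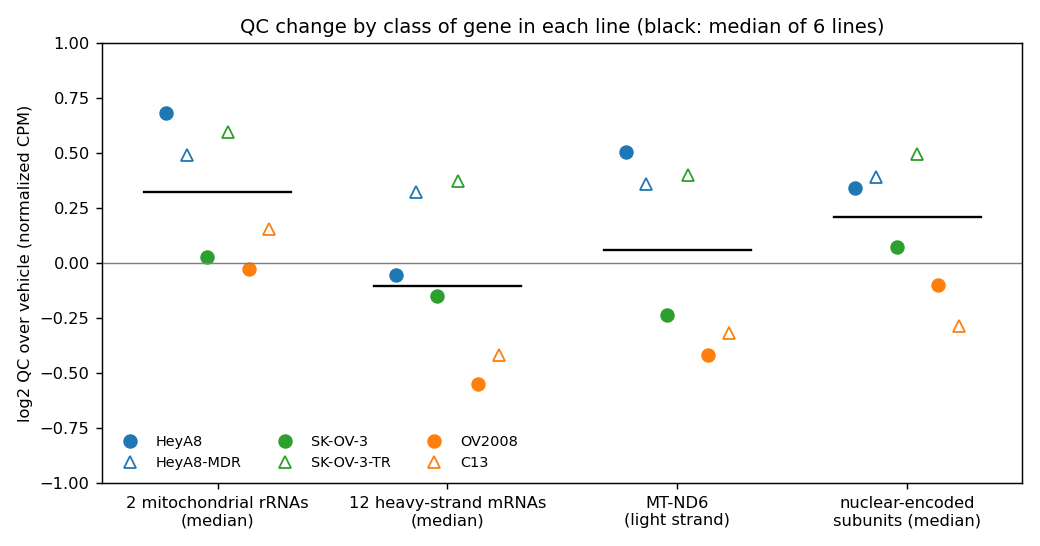
Log2 ratio of normalised CPM, QC over vehicle (vertical axis), for the median of the 2 rRNAs, the median of the 12 heavy-strand mRNAs, MT-ND6 and the median of the nuclear-encoded respiratory subunits, with 1 point per line (filled, sensitive; open, resistant) and a black bar at the median of the 6 lines. The rRNA medians run from -0.02 to 0.68 and the mRNA medians from -0.55 to 0.37, and in each line the rRNA point is the higher.

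The HeyA8 values are shown beside those of its partner because the HeyA8 QC library stood apart. MT-RNR2 changed by 0.74 with QC in HeyA8 and differed by 0.63 between the HeyA8-MDR and HeyA8 vehicle libraries. The same pair of log2 values was 0.63 and 0.73 for MT-RNR1, 0.51 and 0.50 for MT-ND6, and -0.36 and -0.76 for MT-CO3. Not every gene matched in this way. The pair was 0.08 and -0.09 for MT-CYB. MT-ND1 stood at 3993 CPM in the vehicle and 3941 CPM in the QC library of HeyA8, beside -0.53 between the vehicle libraries. The remaining mRNAs follow as vehicle and QC CPM in HeyA8, then the log2 ratio between the vehicle libraries. They were 5924, 7428 and 0.43 for MT-CO1, 2832, 3606 and 0.16 for MT-CO2, and 2783, 3260 and 0.27 for MT-ND5. Next were 2770, 2355 and -0.58 for MT-ND2, 2871, 2618 and -0.37 for MT-ATP6, and 732, 644 and -0.54 for MT-ATP8. MT-ND3 had 760, 716 and -0.02, MT-ND4 6125, 6285 and -0.002, and MT-ND4L 818, 746 and 0.008. Both kinds of difference use the HeyA8 vehicle library, and the part of that library or of the HeyA8 QC library in them was not tested.

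The tRNAs held between 553 and 1832 counts in a library, or 0.0509% to 0.149% of the mitochondrial counts. MT-TQ, MT-TA, MT-TN, MT-TD and MT-TK had 0 counts in all 12 libraries, and 16 of the 22 had under 10 counts in every library. A count of 0 allows a share of up to between 9.81e-06% and 1.69e-05% of a library. Of the 22 tRNAs, 5 passed the filter on low counts (MT-TP, MT-TC, MT-TY, MT-TF and MT-TL1), so 20 of the 37 genes were tested.

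MT-TC, the cysteine tRNA, had 105 counts in the vehicle and 106 in the QC library of HeyA8, 124 and 30 in HeyA8-MDR, and 89 and 63 in SK-OV-3. It had 166 and 77 counts in SK-OV-3-TR, 163 and 143 in OV2008, and 120 and 99 in C13. After scaling for library size MT-TC was lower with QC in all 6 lines, with log2 changes from -1.81 in HeyA8-MDR to -0.10 in C13. Its log2 change over all lines was -0.54 (SE 0.248), with an unadjusted p of 0.0502 and an adjusted p of 0.330 in edgeR's test, and without HeyA8-MDR it was -0.32 (unadjusted p = 0.151). The unadjusted p lay on both sides of 0.05 among the alternatives. It was 0.0298 with no filter, 0.0409 with at least 10 counts in every library and 0.0436 with DESeq2. Scaling on nuclear genes only gave 0.0466, DESeq2 size factors 0.0475 and library size only 0.0645. With no term for the line it was 0.196. The 95% counting intervals of the single lines were ±0.324 to ±0.575.

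MT-TY, the neighbouring tyrosine tRNA, had 44 and 43 counts in HeyA8, 56 and 24 in HeyA8-MDR, and 41 and 33 in SK-OV-3. It had 95 and 30 counts in SK-OV-3-TR, 70 and 39 in OV2008, and 80 and 69 in C13. MT-TY too was lower with QC in all 6 lines after scaling, with log2 changes from -1.15 in OV2008 to -0.03 in C13. Its log2 change over all lines was -0.59 (SE 0.265, unadjusted p = 0.0457, adjusted p = 0.320, edgeR). The unadjusted p was 0.104 without HeyA8-MDR, 0.0968 without SK-OV-3-TR and 0.1496 without OV2008. It was 0.0507 with DESeq2, 0.0520 with no filter, 0.0542 with library size only and 0.123 with no term for the line.

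MT-TP, the proline tRNA at the far end of the genome, is the most abundant tRNA of the table, with between 436 and 1631 counts. It did not share the direction of MT-TC and MT-TY. Its log2 change was 0.58 in HeyA8, 0.39 in HeyA8-MDR, 0.08 in SK-OV-3, 0.66 in SK-OV-3-TR, -0.85 in OV2008 and 0.05 in C13, and 0.16 over all lines (SE 0.18, adjusted p = 0.723, edgeR). Without OV2008 the value over the remaining lines was 0.36 (unadjusted p = 0.0302, adjusted p = 0.453). MT-TF, the phenylalanine tRNA, had between 2 and 30 counts and MT-TL1, a leucine tRNA, between 0 and 17. Their log2 changes over all lines were -0.24 and -0.13, and the 95% counting interval of a single line was at least ±0.766 for MT-TF, so a change of this size was not detectable at this depth.

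Counted over the tested genes, 2 of the 20 mitochondrially encoded genes had an unadjusted p under 0.05 for QC over all 6 lines, MT-RNR2 upward and MT-TY downward, and 0 had an adjusted p under 0.05 in edgeR's test. Of all 18720 genes, 15.2% had an unadjusted p under 0.05, 7.99% upward and 7.18% downward, and 0 passed the adjusted threshold. DESeq2 with the same design gave 518 of all genes, and 0 of the 20, an adjusted p under 0.05. The share among the mitochondrial genes was therefore no larger than the background. MT-RNR2, MT-TC and MT-TY changed in the same direction in all 6 lines, which is 15% of the 20 genes, against 8.73% of all genes tested. The median log2 change of the 20 genes was -0.08 and that of all genes was 0.00.

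In the sensitive lines alone, 0 of the 20 genes had an unadjusted p under 0.05, against a background of 6.59% of all genes. MT-CO3 had a log2 change of -0.42 (SE 0.236, unadjusted p = 0.101, adjusted p = 0.775) and MT-RNR2 one of 0.30 (SE 0.217, adjusted p = 0.813). Without HeyA8 the value of MT-RNR2 in sensitive lines was 0.09. Without C13, a resistant line that shares the estimate of the spread, the unadjusted p of MT-CO3 was 0.0240. MT-ND1 was the only mRNA of the 13 above 0, at 0.02.

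In the resistant lines, 1 of the 20 genes had an unadjusted p under 0.05, against a background of 6.03%. It was MT-RNR2, with a log2 change of 0.48 (SE 0.216, unadjusted p = 0.0479, adjusted p = 0.818, edgeR). MT-RNR1 had a log2 change of 0.35 (SE 0.226, adjusted p = 0.845). Of the 13 mRNAs, 11 were above 0, between 0.02 and 0.23, and MT-ND3 (-0.07) and MT-CYB (-0.12) were below. The count was 0 without HeyA8-MDR, without SK-OV-3-TR and without OV2008. Without C13 it was 5 of 21 genes tested, against 1376 of 19750 genes in all (6.97%), namely MT-RNR2, MT-RNR1, MT-ND2, MT-ATP6 and MT-TC, of which MT-ND2 had a log2 change of 0.53 (unadjusted p = 0.0192).

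The QC effect in resistant lines minus that in sensitive lines was tested as a contrast, and 0 of the 20 genes had an unadjusted p under 0.05, against a background of 1.16% of all genes. All 13 mRNAs had a higher estimate in resistant lines, by 0.08 for MT-ND3 up to 0.47 for MT-ATP6 (SE 0.328, unadjusted p = 0.174, adjusted p = 0.9998, edgeR). The difference was 0.17 for MT-RNR2 (SE 0.306) and 0.20 for MT-RNR1 (SE 0.319). That contrast has no term for the isogenic pair, so an alternative chosen after seeing the data gave each pair a QC term of its own. With it, 0 of the 20 genes had an unadjusted p under 0.05, against 2.34% of all genes, and MT-ATP6 had a difference of 0.47 (SE 0.263, unadjusted p = 0.0989). Within pairs, the resistant minus the sensitive value of the heavy-strand mRNA median was 0.38 in the HeyA8 pair, 0.52 in the SK-OV-3 pair and 0.13 in the OV2008 pair. For MT-ATP6 the 3 differences were 0.57, 0.66 and 0.18, and 7 of the 13 mRNAs had a higher change in the resistant line of all 3 pairs. The same share over all genes tested was not counted. Of the 13 mRNAs, 12 are read from the heavy-strand promoter in long shared RNAs. Counts of mRNAs, here and elsewhere, are therefore not counts of separate observations.

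C13, whose heavy-strand mRNA median (-0.42) lay near that of its parent OV2008 (-0.55), lay apart from the other 2 resistant lines. Without it 5 of 21 genes (MT-ATP6, MT-ND2, MT-CO3, MT-ND4 and MT-ATP8) had an unadjusted p under 0.05 for the difference, against 540 of 19750 genes in all (2.73%), with a difference of 0.77 for MT-ATP6 (unadjusted p = 0.00969, adjusted p = 1.0). Without OV2008 the count was 0 of 21, against 2.31% of all genes. The median difference of the mitochondrial genes was 0.37 without C13 and 0.04 without OV2008. Leaving out either line leaves its isogenic partner unpaired, so family and resistance are mixed in these values. For none of the 20 genes did the 3 resistant lines all move one way and the 3 sensitive lines all the other. Of all 18720 genes tested only 184 did, so the count of 0 says little about the mitochondrial genes.

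Without drug, the mRNAs had estimates below 0 in the resistant lines, none of which passed the test. In the vehicle libraries 0 of the 20 genes had an unadjusted p under 0.05 between resistant and sensitive lines, with the isogenic pair as the block, against a background of 3.71%, and 0 had an adjusted p under 0.05. All 13 mRNAs were below 0, from -0.52 for MT-ND1 (SE 0.240, unadjusted p = 0.0728, adjusted p = 0.994, edgeR) to -0.15 for MT-CO2. By pair, MT-ND1 was -0.53 in HeyA8-MDR over HeyA8, -0.66 in SK-OV-3-TR over SK-OV-3 and -0.38 in C13 over OV2008. DESeq2 gave an unadjusted p of 0.0432 for MT-ND1, and without the HeyA8 pair that of MT-ND5 was 0.0233 in edgeR's test. The median log2 ratio of the tested mitochondrial genes, tRNAs included, was -0.27. It was -0.41 without the HeyA8 pair, -0.20 without the SK-OV-3 pair and 0.07 without the OV2008 pair, so its direction depended on the OV2008 pair.

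The pairs differed in direction in MT-RNR2 and MT-ND6. The log2 ratio of MT-RNR2 was 0.63 in the HeyA8 pair, 0.35 in the SK-OV-3 pair and -1.01 in the OV2008 pair. MT-ND6 was 0.50 in the first pair, -1.13 in the next and -0.55 in the last. The median of the 13 mRNAs was -0.02, -0.61 and -0.46 in the same order. The pairs had no common direction for any of these quantities except the mRNA median, which was near 0 in the HeyA8 pair.

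**Figure D4:**
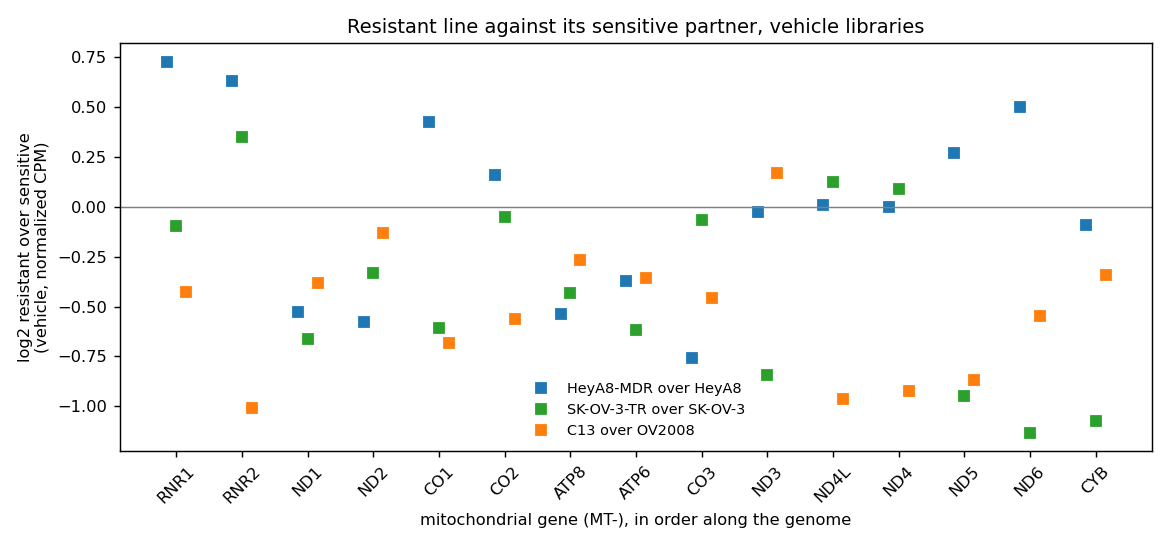
Log2 ratio of normalised CPM, resistant over sensitive line in the vehicle libraries (vertical axis), for each of the 15 mitochondrial rRNAs and mRNAs in order along the genome, with 1 square per isogenic pair. MT-RNR2 runs from -1.01 in the OV2008 pair to 0.63 in the HeyA8 pair, while MT-ND1 is below 0 in all 3 pairs.

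Levels between genes were compared as CPM per kb of gene, here without TMM scaling, in the vehicle libraries. The highest medians over the 6 lines were those of the complex IV genes MT-CO3 (6649, range 3582 to 8675), MT-CO2 (6481) and MT-CO1 (5400). MT-ND4 (5217) and MT-RNR2 (4385, range 1800 to 6674) followed. The ATP synthase genes MT-ATP6 (4008) and MT-ATP8 (3262), then MT-ND4L (2912), MT-ND1 (2576) and MT-CYB (2467), made up the middle of the order. MT-ND3 (1823), MT-ND5 (1693), MT-ND2 (1639) and the light-strand MT-ND6 (1422) were the lowest mRNAs.

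MT-RNR1 had a median of 579 CPM per kb, MT-TP of 564, MT-TC of 75.0 and MT-TY of 40.3, and the remaining tRNAs lay below 5. The order of the levels was not the order along the heavy-strand transcript, where MT-RNR1, the first long gene, had the lowest median of the 15 genes and MT-CO3, near the middle, the highest. The rRNA levels come from RNA selected by its poly(A) tail and so are not their share in the cell. Of neighbours in this order, MT-ATP6 was above MT-ATP8 in 6 of 6 lines (median log2 ratio 0.28), MT-CYB above MT-ND3 in 6 of 6 (0.43) and MT-ND6 above MT-RNR1 in 5 of 6. MT-ATP8 is 207 bases long and shares 46 of them with MT-ATP6, which is 681 bases long. Reads left out over shared bases lower the level of MT-ATP8 more, and their part in the ratio of MT-ATP6 to MT-ATP8 was not tested. The other neighbours among the 15 genes kept their order in only 3 or 4 of 6 lines, so they did not differ beyond the spread between lines. MT-CO1 was among the 8 genes with the most counts in each of the 12 libraries, and between 3 and 6 of the 10 genes with the most counts were mitochondrial.

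**Figure D5:**
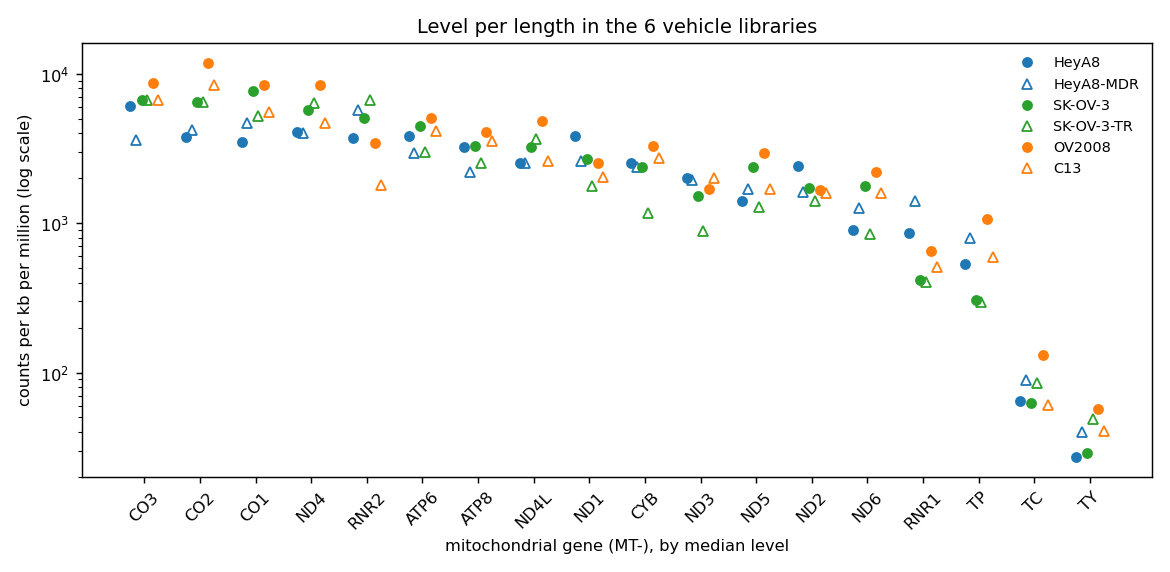
CPM per kb (vertical axis, log scale) in the vehicle library of each line, 1 point per line (filled, sensitive; open, resistant), for the 18 mitochondrial genes with the highest levels in order of their median. The mRNAs and MT-RNR2 overlap across lines, and MT-TC (75.0) and MT-TY (40.3) lie well below the others.

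The nuclear genes that serve mitochondrial DNA and RNA were described by lists written from general knowledge. Of 18 genes of mitochondrial transcription and replication, 0 had a higher and 5 a lower level with QC at an unadjusted p under 0.05 over all lines, with a median log2 change of -0.05. They were POLRMT, the RNA polymerase (-0.44, SE 0.131, adjusted p = 0.177), POLG2, the accessory subunit of the DNA polymerase (-0.45, SE 0.15, adjusted p = 0.198), MTERF4, TWNK and TOP1MT. The background for a lower level was 7.18% of all genes, and 0 of the 18 passed the adjusted threshold in edgeR's test. POLRMT had log2 changes of -0.61 in HeyA8, -0.77 in HeyA8-MDR, -0.09 in SK-OV-3, 0.02 in SK-OV-3-TR, -0.58 in OV2008 and -0.63 in C13, and it was lower in 5 of 6 lines.

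Of 35 genes of mitochondrial RNA processing and stability, 1 was higher and 9 were lower at an unadjusted p under 0.05, with a median of -0.19. The background over all genes, here and for the regulators below, was 7.99% higher and 7.18% lower, with a median of 0.00. Of the 35, the genes with the smallest p were FASTKD2, an RNA-binding protein of the mitochondrial RNA granule (-0.40, adjusted p = 0.180, lower in 6 of 6 lines), and TRUB2, a pseudouridine synthase (-0.37, adjusted p = 0.194). The higher one was PNPT1, which encodes the mitochondrial polynucleotide phosphorylase, an RNA-degrading enzyme (0.34). MTERF4 stands in this list and in the one before. Of 9 nuclear regulators, which share TFAM with the transcription list, PPARGC1B, a coactivator of mitochondrial biogenesis (-0.63, adjusted p = 0.175), and its relative PPRC1 (-0.31) were lower, and the median was 0.06.

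Nuclear-encoded subunits of the same respiratory complexes numbered 74, of which 8 were higher and 2 lower at an unadjusted p under 0.05, with a median log2 change of 0.13 and 60 above 0. Over all genes the background was 7.99% higher and 7.18% lower, and the median log2 change was 0.00. In complex I, NDUFS4 (0.44, adjusted p = 0.176), NDUFB3 (0.42) and NDUFC1 (0.32) were higher. In complex III, 0 of 9 had an unadjusted p under 0.05, and UQCRB (0.24) and UQCR10 (0.26) came nearest. In complex IV, COX6A1 (0.33) was higher, and COX7A2 had a log2 change of 0.31. In the ATP synthase, ATP5PF (0.35), ATP5MG (0.31), ATP5MF (0.53) and ATP5MK (0.34) were higher and ATP5F1D (-0.41) lower. None of the 74 passed the adjusted threshold in edgeR's test.

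The mitochondrial mRNAs were lower than their nuclear-encoded partners in the change with QC in each of the 6 lines. The median of the 74 nuclear subunits was 0.34 in HeyA8, 0.39 in HeyA8-MDR and 0.08 in SK-OV-3. The same median was 0.50 in SK-OV-3-TR, -0.10 in OV2008 and -0.28 in C13. The median of the heavy-strand mRNAs minus that of the nuclear subunits was -0.40 in HeyA8, -0.07 in HeyA8-MDR, -0.23 in SK-OV-3, -0.12 in SK-OV-3-TR, -0.45 in OV2008 and -0.13 in C13, with a median of -0.18 (SD 0.156). The difference is a description of 6 lines with no test of its own. The lines in which nuclear subunits were highest, SK-OV-3-TR and HeyA8-MDR, were also those in which most mitochondrial mRNAs were above 0.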

How the data were processed

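The submitters' processing notes name STAR 2.7.3a, HTSeq 0.6.1p1 and GRCh38.p13, whereas the methods of the study name TopHat, hg19 and HTSeq. The authors deposited raw counts of reads per gene without normalization, from TruSeq RNA libraries, and the annotation and strand setting are not given in the sources used here. HTSeq leaves out reads it cannot give to 1 gene, which lowers counts of overlapping genes. Ensembl IDs were paired with symbols through a reference table, and the 2049 unpaired IDs held 0.132% of the counts.

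Genes were kept by filterByExpr (minimum count 10, minimum total 15), which left 18720 for testing, and were scaled by TMM with edgeR 4.0.16 (R 4.3.3, limma 3.58.1). Quasi-likelihood fits had a term for each line and a QC term over all lines, or 1 for each group. Vehicle libraries were fitted with the isogenic pair as the block. Tests were two-sided, with Benjamini-Hochberg adjustment over all genes tested and, as the study names it, an unadjusted threshold of 0.05. Deviations from the group means were correlated between both libraries of each line (0.893 to 0.929), and the pairing comes from the shared line. Values per line are log2 ratios of normalised CPM with a prior count of 2. The methods were tested on simulated data in which all genes had a common spread and each changed gene moved alike in every line. The real lines differed in direction, so that test does not show how the methods perform on them.

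The members, the gene lists and the alternatives were chosen with earlier results of these data known. Named in the text are the 13 mRNAs, the 2 rRNAs, the tRNAs that passed the filter, the 2 members of each other list with the smallest p over all lines, and the 4 nuclear copies with the most counts. KRT8, KRT18, KRT19, PAX8, WT1, MUC16, EPCAM, CDH1, PTPRC, LUM and COL1A1 come from the marker lists. The other genes named, MTERF4, TWNK, TOP1MT, PNPT1, NDUFC1, ATP5MG, ATP5MF, ATP5MK, TFAM and the tRNAs at 0, were chosen after their values were seen. Some genes counted in the lists are not reported here by name. Alternatives were other scalings, other filters, no block, DESeq2 1.42.0, leaving out each line in turn and, added after seeing the data, the isogenic pair as a block for the difference of the QC effects. Plots were drawn with matplotlib 3.10.9.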

Additional observations from a re-analysis of the deposited data

How the results depend on the processing

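The counts of mitochondrial genes with an unadjusted p under 0.05 depended on the settings. Over all lines the count was 2, and it was 1 with library size only, 0 with no replicate block (no term for the line, with which 117 of all genes had such a p), 2 with DESeq2, 3 with DESeq2 size factors, scaling on nuclear genes only, no filter and at least 10 counts in every library, and 1 to 3 when 1 line was left out. In sensitive lines it was 0, and it was 1 (MT-CO3) with library size only and with no filter, and 0 to 1 with 1 line left out. In resistant lines it was 1, and it was 0 with no replicate block and 0 to 5 with 1 line left out. For the difference it was 0, also with the isogenic pair as a block, and 0 to 5 with 1 line left out. For the vehicle libraries it was 0, and it was 1 with DESeq2 and 0 to 1 with 1 pair left out. The adjusted count over all lines was 0, and it was 1 (MT-RNR2) with no filter, where 791 of all genes passed. It was 0 in all 5 comparisons with DESeq2. The changes near 0 over all lines changed sign. MT-ND6 was -0.0034 with no replicate block and between -0.0422 and 0.1466 with 1 line left out. MT-CO2 was -0.0006 with library size only, -0.0698 with no replicate block and -0.10 to 0.13 with 1 line left out. MT-ND2 was -0.0049 with library size only, -0.0021 with scaling on nuclear genes and -0.12 to 0.10 with 1 line left out. With 1 line left out, MT-ND5 ran from -0.14 to 0.0042, MT-CO1 from -0.10 to 0.0571, MT-ND4 from -0.13 to 0.0933, MT-ATP6 from -0.20 to 0.0313, MT-TL1 from -0.52 to 0.16, MT-ND4L from -0.19 to 0.0082 and MT-ATP8 from -0.21 to 0.0138, and MT-RNR1 in sensitive lines from -0.085 to 0.31. The cause was not tested. MT-RNR2 over all lines kept its direction under each setting, between 0.32 and 0.45. The median of the rRNA change minus the mRNA change ran from 0.22 to 0.52 with 1 line left out. With 1 library per line and treatment, a change within a single line has no replicate check.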
